A study of Mus musculus with 18 samples.

Results

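Compact multi-exon circRNAs were the exonic circRNAs (ecircRNAs) of mouse NIH/3T3 cells whose backsplice junction joined the edges of separate exons lying at most 5000 bp apart on the genome. A circRNA was taken when it was listed in a cytoplasmic or total RNA library and in none of the nuclear libraries, when both of its ends fell on annotated exon edges of a gene, and when no single exon spanned both ends. Of the 16171 circRNAs listed in any library, 4530 met this rule, from 2873 host genes. A further 193 circRNAs met every other condition but were also listed in a nuclear library and were left out. The nuclear libraries held only 2189 to 4383 junction reads each, so absence from their lists is weak evidence that a circle was absent from the nucleus. The rule used no fold change between genotypes. It did use the nuclear lists of both genotypes, which held 1101 and 1101 circRNAs in KO, against 1001 and 957 in WT. The KO lists could therefore remove more circles.

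NIH/3T3 is an established mouse embryonic fibroblast line. The WT samples were the unedited line, and the XPO4 KO samples came from 1 line made from it with CRISPR-Cas9, in which both gene copies carried the same edit, so any effect of the knockout cannot be told apart from other properties of that line. Cytoplasmic and total RNA were each sequenced in 2 libraries per genotype after rRNA depletion and RNase R digestion of linear RNA, and mRNA was sequenced in 3 libraries per genotype. The labels do not say that replicates came from separate cultures, so p-values measure only the spread between these samples. The circRNA libraries used here held 50341 to 81941 junction reads, of which 11904 to 19383 fell on compact circRNAs, and the mRNA libraries held 16974062 to 22057323 gene counts. All 9 fibroblast markers were present, with summed levels of 20577 to 24059 CPM. The 14 markers of blood, epithelial, endothelial, neural and muscle cells summed to 3.36 to 6.34 CPM, and 5 of them were at 0 in every library. Xpo4 mRNA had counts of 657, 614 and 685 in WT and 712, 504 and 687 in KO, which overlap (log2 change 0.18, adjusted p = 0.193). An edit that shifts the reading frame need not lower the mRNA, so these counts do not check the genotype labels.

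A circRNA forms when the spliceosome joins the end of a downstream exon back to the start of an upstream exon, which leaves a closed loop without a cap or poly(A) tail. Introns that flank the circularized exons, and proteins that bind or pair them, are known to promote this backsplicing. Most ecircRNAs are found in the cytoplasm, and the helicases DDX39A and DDX39B as well as exportin 4 have been linked to their export from the nucleus.

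The backsplice junction is the only stretch of a circRNA that its linear mRNA lacks, and a read must cross it to be counted. The junctions of the 8 compact circRNAs with most reads, of the pair with the smallest p for unequal changes in cytoplasm and total RNA (circPsd3 and circNfia), and of the shortest circle (circPhip) are therefore shown. Each is read 5′ to 3′ along the RNA strand from GRCm38.p6. Lower case marks the end of the last exon of the circle, and capitals mark the start of the first exon, to which it is joined.
circUck2 (chr1:167234692-167237648, minus strand): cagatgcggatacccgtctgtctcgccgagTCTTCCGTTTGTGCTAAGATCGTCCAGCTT
circTent4a (chr13:69512890-69515903, minus strand): cttgacaaagctacaACTTCATGAGGAGAT
circZmym4 (chr4:126923064-126926023, minus strand): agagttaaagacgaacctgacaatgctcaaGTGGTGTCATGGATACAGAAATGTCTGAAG
circEefsec (chr6:88355483-88358642, minus strand): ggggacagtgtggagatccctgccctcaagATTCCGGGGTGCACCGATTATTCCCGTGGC
circIpo7 (chr7:110027071-110031766, plus strand): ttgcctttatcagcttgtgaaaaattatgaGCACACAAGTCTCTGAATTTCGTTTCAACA
circEspl1 (chr15:102299803-102304145, plus strand): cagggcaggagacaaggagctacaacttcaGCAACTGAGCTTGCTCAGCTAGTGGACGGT
circMirg (chr12:109741690-109742290, plus strand): gcctctgtcccacagAGAGCTTCATGGAGT
circCrim1 (chr17:78313124-78315746, plus strand): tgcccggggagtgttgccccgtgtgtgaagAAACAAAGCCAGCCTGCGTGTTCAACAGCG
circPsd3 (chr8:67719900-67720953, minus strand): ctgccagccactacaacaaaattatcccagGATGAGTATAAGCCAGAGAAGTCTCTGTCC
circNfia (chr4:98063013-98065446, plus strand): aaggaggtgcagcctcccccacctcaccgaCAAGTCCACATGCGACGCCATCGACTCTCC
circPhip (chr9:82974674-82974956, minus strand): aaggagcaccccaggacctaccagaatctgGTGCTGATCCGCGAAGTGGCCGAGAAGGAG
The whole spliced circle of circPhip, from a gene for a bromodomain and WD-repeat protein, is short enough to be printed and runs over exons 3 to 4 of the 40 exons of its transcript.
circPhip, all 90 nt: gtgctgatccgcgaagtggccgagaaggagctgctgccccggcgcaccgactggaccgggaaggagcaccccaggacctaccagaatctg

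The compact circRNAs were short circles cut from the coding middle of genes. For 4482 of them, 1 transcript of GENCODE M21 held both end exons, and their sequence could be assembled, while 48 had none. Their genomic span had a median of 2483.5 bp (254 to 5000 bp), and their spliced length a median of 376 nt (90 to 3632 nt), which compares with 634 nt for the 9180 multi-exon circRNAs that spanned over 5 kb and up to 50 kb (called longer circRNAs here) and 387 nt for the 657 single-exon circRNAs. Circles of 2 exons made up 2048 (45.7%), circles of 3 exons 1465 (32.7%), circles of 4 exons 614 (13.7%) and larger circles 355 (7.92%). Exons filled a median of 17.3% of the span, against 5.12% in the longer circRNAs. The span limit itself fixes part of that difference.

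Features that the span rule did not use directly also differed in their medians. Introns inside compact circles, which the span limit bounds, had a median of 848.5 nt, against 2099.5 nt in longer circRNAs. Whether that limit also fixes part of the differences below was not tested. The intron just before a compact circle had a median of 3405 nt and the intron just after it 2664 nt, against 7200 and 5126 nt for longer circRNAs and 7540 and 5734 nt for single-exon circRNAs. The first exon of a compact circle was exon 6 of its transcript by median, against exon 4 for longer and exon 3 for single-exon circRNAs. A start at exon 2 was found for 19.8% of compact, 30.2% of longer and 41.3% of single-exon circles. GC content had a median of 49.4% in compact, 47.1% in longer and 52.0% in single-exon circles. These are counts of annotated features over circRNAs that can share a gene, and no test was made across them.

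Most compact circles lay within protein-coding sequence. Of 4441 compact circRNAs whose transcript codes for a protein, 3946 (88.9%) lay wholly inside the coding sequence, against 83.3% of longer and 69.7% of single-exon circles, and 9.77% held the start codon. The spliced length was a multiple of 3 in 1498 of the wholly coding circles (38.0%), so that such a circle has no frame shift across its junction. All 4482 circles were flanked by the AG and GT dinucleotides of normal splice sites, a condition that the circRNA caller imposes. Inverted matches, the arrangement that can pair flanking introns, were sought only within the 1000 nt of intron next to each end of a circle. Of the compact circles with that much intron on both sides, 6.22% had an inverted and 4.40% a direct match of at least 20 nt. In longer circRNAs these shares were 3.74% and 3.40%, and in single-exon circRNAs 4.65% and 3.49%. Both of these classes had longer flanking introns by median, and the rest of the introns was not searched, so the shares do not describe whole introns.

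**Figure D1:**
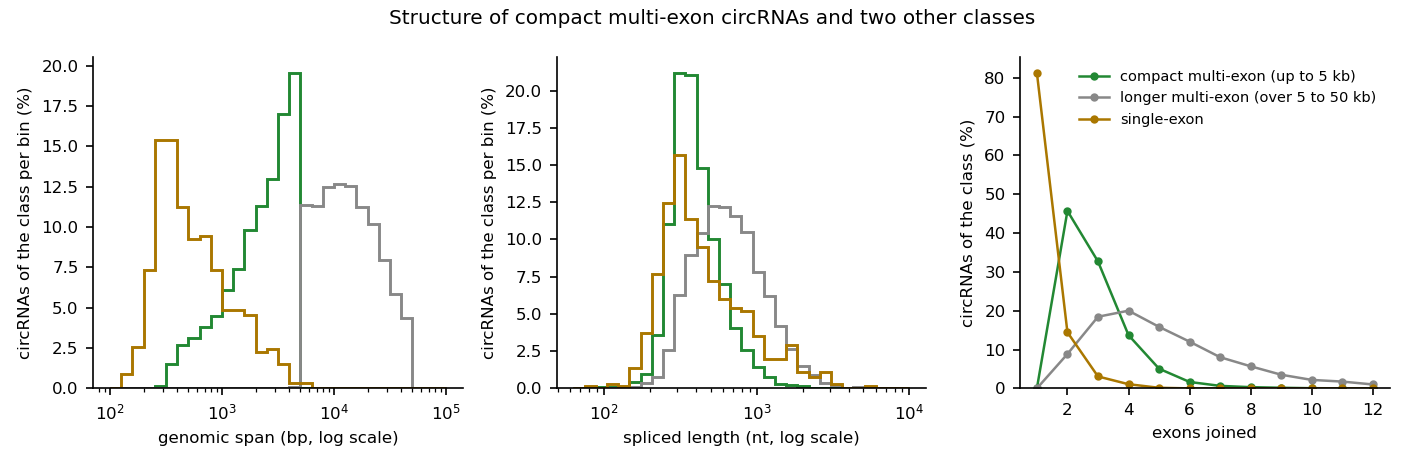
Structure of compact (green), longer (grey) and single-exon (ochre) circRNAs: genomic span (bp, log scale) and spliced length (nt, log scale) as the percentage of a class per bin, and the number of exons joined as the percentage of a class. The spliced lengths of compact circles centre on 376 nt, below the 634 nt of longer circRNAs, although their spans reach to 5000 bp; in the transcript used, 122 of 651 circRNAs of the single-exon class join more than 1 exon.

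Most host genes gave a single compact circle. Of the 2873 hosts, 1905 had 1 compact circRNA, 580 had 2, and 388 had 3 or more. Some circles used the same splice site, since 754 (16.6%) shared an acceptor or a donor with another compact circle, and 1660 hosts (57.8%) also gave a longer circRNA. Ckap5, which codes for a microtubule polymerase, gave the most, with 14 circles spread between exons 2 and 35 of 44. Together they had 45 and 46 junction reads in WT cytoplasm, against 70 and 68 in KO cytoplasm. Total RNA held 50 and 45 in WT, against 37 and 40 in KO, so that the summed reads were higher in both KO cytoplasmic libraries and lower in both KO total libraries. Birc6, a giant ubiquitin-conjugating enzyme, gave 13 circles, with 68 and 62 reads in WT, against 39 and 46 in KO cytoplasm, and 50, 49, 47 and 48 reads in the WT and KO total libraries in that order. Chd2, a chromatin remodeller, gave 10 circles with 24 and 38 reads in WT, against 23 and 28 in KO cytoplasm, which overlap, and with 31 and 31 reads in WT, against 11 and 15 in KO total RNA, which do not. The summed reads of these hosts were not tested as such.

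The hosts were expressed genes, with a median level of 9.49 RPKM in WT mRNA against 6.62 RPKM for hosts of the other circRNAs. Among the proteins they code for, assigned from gene symbols, were 101 membrane trafficking proteins, 89 chromatin regulators, 88 RNA-binding and splicing factors, 88 ubiquitin ligases and deubiquitinases, 65 DNA repair proteins, and 31 nuclear transport receptors and pore proteins. The abundance of a circle was not ordered by the level of its host. Spearman's correlation between junction reads and host level across compact circRNAs lay between -0.022 and 0.024, a value across genes that share libraries.

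A typical compact circRNA was counted a few times. A library listed 2584 to 2726 of them, with a median of 3 to 6 reads, and none exceeded 214 reads. The lists of cytoplasm and total RNA overlapped only in part. Of 2862 compact circRNAs listed in cytoplasm and 2944 in total RNA, 1276 were in both, which is 44.6% of the cytoplasmic and 43.3% of the total list, and 799 were in all 8 libraries. Some of those missing from a fraction were not rare in the other, since the 1586 listed in cytoplasm only had up to 80 reads and the 1668 listed in total RNA only had up to 90, although total RNA includes the cytoplasm. Within a fraction, every listed compact circRNA was present in both libraries of WT or both libraries of KO, and none was in 1 library only or in 1 of each genotype. The study's methods say that circRNAs found in both replicates were merged, and do not say how the libraries of the other genotype were filled.

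The agreement of replicates followed this pattern. For compact circRNAs with 1 to 9 reads in a pair of libraries, the mean chi-square of the difference between replicates was 0.640 to 0.681, below the value of about 1 that counting noise gives. For those with at least 50 reads it was 4.21 to 13.8, so that replicates of abundant circles differed well beyond counting noise and were treated as separate samples. Between WT and KO the same value was 2.06 to 3.59 at 1 to 9 reads and 4.27 to 11.4 at 50 reads or more. Spearman's correlation across the compact circRNAs of a fraction was 0.709 to 0.872 between replicates and -0.281 to -0.0556 between WT and KO libraries. Relative to replicates, WT and KO were further apart for rare circles than for abundant ones, and the part that selection before deposit has in this was not tested.

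**Figure D2:**
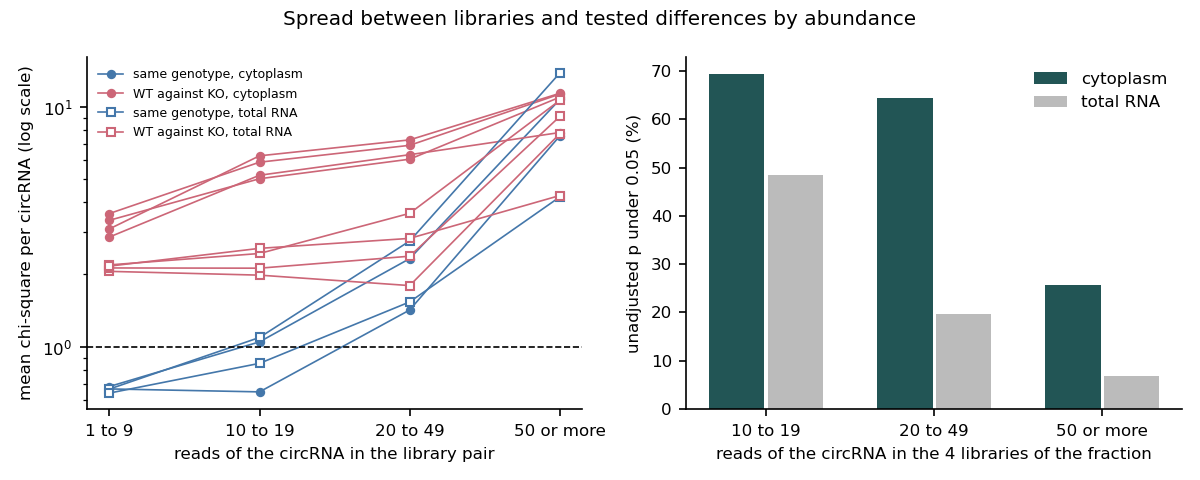
Left, mean chi-square per compact circRNA (log scale) between pairs of libraries by the reads of the circRNA in the pair, with replicates of the same genotype in blue, WT against KO in red and the counting noise value of 1 dashed. Right, bars give the percentage of tested compact circRNAs with an unadjusted p under 0.05 by summed reads. In total RNA it is 48.4% at 10 to 19 reads and 6.76% at 50 or more. Other circRNAs were not split by reads.

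None of the 8 compact circRNAs with most reads passed the test between genotypes in either fraction. In these bulk samples, fewer cells holding a circle and fewer copies per cell cannot be told apart. circUck2, from the gene of a uridine-cytidine kinase, joins exons 2 to 4 of 7 and had 154 and 145 junction reads in WT cytoplasm, against 30 and 148 in KO cytoplasm. Total RNA held 95 and 71 reads in WT, against 135 and 42 in KO, so that in each fraction the KO replicates lay further apart than the WT replicates. Its fitted log2 change was -0.28 ± 0.84 (SE) in cytoplasm (edgeR quasi-likelihood test, adjusted p = 0.789) and 0.11 ± 0.67 in total RNA (adjusted p = 0.919). Every SE printed with a log2 change was back-calculated from that change and its test statistic, so it adds nothing to the p-value.

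circTent4a, from the gene of a noncanonical poly(A) polymerase, had 214 and 105 reads in WT, against 34 and 107 in KO cytoplasm, and 80, 60, 76 and 26 in the WT and KO total libraries. circZmym4, from a zinc finger gene, had 45 and 43 reads in WT, against 17 and 114 in KO cytoplasm, the widest replicate gap of its 4 groups, and 62, 37, 78 and 20 in total RNA. In each of these circles the KO values lay on both sides of a WT value. Their adjusted p in cytoplasm were 0.467 and 0.28.

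circEefsec, from the gene of the elongation factor for selenocysteine, had 50 and 56 reads in WT, against 43 and 21 in KO cytoplasm, with all KO values lower, and 72, 52, 67 and 40 in total RNA. circIpo7, from the gene of a nuclear import receptor, had 84 and 60 reads in WT, against 16 and 51 in KO cytoplasm, again without overlap, and 48, 50, 53 and 29 in total RNA. circEspl1, from the gene of the protease separase, had 77 and 57 reads in WT, against 27 and 39 in KO cytoplasm, and 54, 28, 56 and 31 in total RNA. These 3 were lower in both KO cytoplasmic libraries as deposited, but with the smaller KO libraries taken into account the adjusted p were 0.877, 0.486 and 0.554.

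circMirg comes from a long noncoding RNA of an imprinted locus that hosts miRNAs, and had 45 and 47 reads in WT, against 34 and 48 in KO cytoplasm, and 33, 45, 55 and 25 in total RNA. circCrim1, from the gene of a transmembrane protein that binds bone morphogenetic proteins, had 53 and 38 reads in WT, against 19 and 34 in KO cytoplasm, and 64, 48, 28 and 39 in total RNA. No call was made for either (adjusted p in cytoplasm 0.664 and 0.747, in total RNA 0.951 and 0.371).

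**Figure D3:**
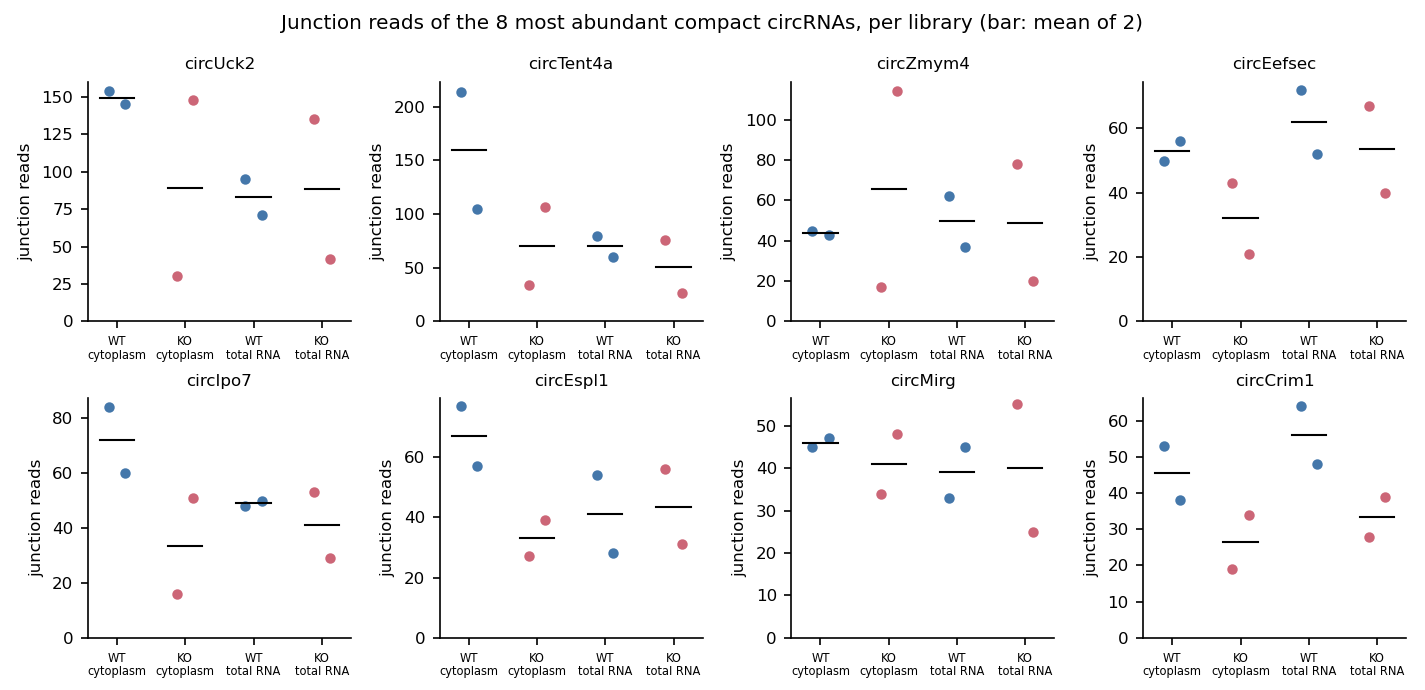
Junction reads (y axes) of the 8 most abundant compact circRNAs in each cytoplasmic and total library, 1 point per library with WT in blue and KO in red, and a bar at the mean of 2 libraries. For circUck2 the KO cytoplasmic libraries lie at 30 and 148 reads and the WT libraries at 154 and 145.

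The first comparison asked whether compact circRNAs as a group had other levels in KO than in WT cells. For each library, log10 junction reads were averaged over its listed compact circRNAs. In cytoplasm this level was 0.631 and 0.687 in WT, against 0.584 and 0.596 in KO, without overlap, a difference of -0.0686. In total RNA it was 0.547 and 0.543 in WT, against 0.516 and 0.522 in KO, a difference of -0.0260. The two-sided exact permutation test gave p = 0.333 in both fractions, which is the smallest that 2 against 2 libraries allow. After every library was brought to an equal number of circRNA reads, the cytoplasmic difference turned to 0.0806, since the KO cytoplasmic libraries had 50629 and 63335 junction reads and the WT libraries 77818 and 81941.

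The share of all circRNA reads that fell on compact circles needs no scaling. In cytoplasm it was 22.7% and 23.7% in WT, against 28.1% and 24.9% in KO, a difference of 3.33 percentage points (exact permutation p = 0.333). In total RNA it was 22.6% and 22.8% in WT, against 21.4% and 23.6% in KO, which overlap (difference -0.189 points, exact permutation p = 1, and 0.945 points without the KO library of replicate 1).

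Compact circles were then set against the other exonic classes within each library. Against longer circRNAs, the mean log10 reads differed by -0.0365 and -0.0353 in WT cytoplasm and by 0.0391 and 0.0406 in KO cytoplasm. In total RNA the differences were -0.00113 and -0.00349 in WT, against -0.00908 and -0.0139 in KO. Compact circles were therefore lower than longer ones in both WT and higher in both KO cytoplasmic libraries, and slightly lower in all 4 total libraries. Over the 8 libraries the mean difference was -0.00245 (two-sided exact sign-flip permutation p = 0.758). The KO minus WT shift was 0.0757 in cytoplasm and -0.00919 in total RNA, and the difference of 0.0849 between these shifts had an exact permutation p of 0.0556, the smallest that the 36 arrangements of libraries within fractions allow. Against single-exon circRNAs the compact circles were lower in 8 of 8 libraries, with a mean difference of -0.0441 (exact sign-flip permutation p = 0.0078, the smallest that 8 libraries allow).

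**Figure D4:**
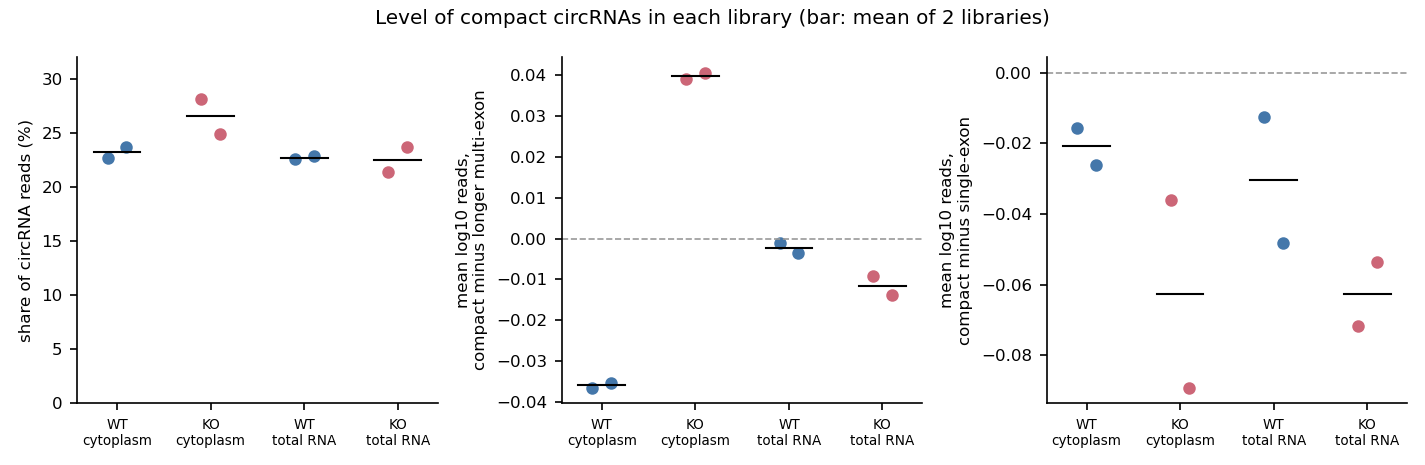
Compact circRNAs by library, 1 point each (WT blue, KO red) with a bar at the mean of 2: their share of circRNA reads (%), and their mean log10 reads minus that of longer and of single-exon circRNAs. The difference from longer circRNAs is -0.0365 and -0.0353 in WT cytoplasm but 0.0391 and 0.0406 in KO cytoplasm, and the difference from single-exon circRNAs is below 0 in 8 of 8 libraries.

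The second comparison asked which compact circRNAs differed between KO and WT cytoplasm. Of 2629 with at least 10 reads over the 4 libraries, 897 were higher and 576 lower in KO (edgeR quasi-likelihood test, adjusted p under 0.05 over all circRNAs). Over all 8917 circRNAs tested, 30.0% were called higher and 23.5% lower. Without WT replicate 2 the balance turned to 379 higher and 386 lower. The median log2 change was 0.058 for compact, -0.49 for longer and -0.25 for all circRNAs. Without WT replicate 2 the median was 0.68 for compact and 0.25 for all circRNAs, so the shift was not particular to compact circles. The share called over all circRNAs was not counted for that fit. These counts passed a filter on summed reads and rest on lists already selected within genotypes.

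The cytoplasmic calls came mainly from circles with few reads. At 10 to 19 reads, 826 of 1425 (58.0%) were called, at 20 to 49 reads 610 of 1005 (60.7%), and at 50 or more 37 of 199 (18.6%). Over all circRNAs tested, 53.5% were called. That share was not split by reads, so the fall is not called particular to compact circles. When the fit was restricted to circRNAs with at least 50 reads, 21 of 199 compact circles were called, 11 higher and 10 lower, against 3.91% higher and 6.10% lower over all circRNAs in that fit. With DESeq2, 256 were higher and 33 lower, where 8.47% and 1.39% of all circRNAs were called. Without any scaling of libraries 295 were higher and 424 lower, against 9.39% and 17.0% of all circRNAs, and the median of all circRNAs shifted by -0.52 on the log2 scale. With RLE scaling 934 were higher and 525 lower, and with scaling by total reads 896 and 637. The share over all circRNAs was not counted for these scalings. More were thus called higher than lower under each scaling used, and the order turned round when libraries of unequal size were left unscaled.

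Among compact circRNAs with a mean of at least 10 reads in KO cytoplasm, the smallest p belonged to circDcp2, circLman2, circSsx2ip and circNup98. circDcp2, from the gene of the mRNA decapping enzyme on chromosome 18, had 0 and 0 reads in WT, against 17 and 15 in KO cytoplasm, at least 15.6-fold higher when 3 counts over the WT pair are taken as the floor (adjusted p = 0.000138). Total RNA held 6 and 5 reads in WT, against 3 and 4 in KO, so that a circle listed at 0 in the WT cytoplasm was counted in WT whole cells. circLman2, from the gene of a lectin that carries glycoproteins out of the endoplasmic reticulum (chr13:55351156-55353063), had 0 and 0 reads in WT, against 21 and 19 in KO cytoplasm, at least 19.5-fold higher, and 6, 3, 4 and 3 in total RNA.

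circSsx2ip, from the gene of a centrosome and adhesion protein (chr3:146417607-146419347), had 0 and 1 reads in WT, against 16 and 15 in KO cytoplasm (log2 change 5.14 ± 0.72 SE). circNup98, from the gene of a nuclear pore protein (chr7:102138732-102139650), had 0 and 1 reads in WT, against 18 and 17 in KO cytoplasm (log2 change 5.32 ± 0.75). Both were absent from the total RNA lists and were set to 0 there. The adjusted p of these 4 circles was 0.000138 in edgeR and 0.0184 to 0.0261 in DESeq2. Each was listed in cytoplasm, and passed the read minimum, only through the KO libraries where it was high, so its order between genotypes follows in part from that choice and its values are given as a description.

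The lower calls with the smallest p were circArhgap26, circBtaf1, circFarp2 and circMeis3. circArhgap26, from the gene of a GTPase-activating protein on chromosome 18, had 19 and 19 reads in WT, against 0 and 0 in KO cytoplasm, at least 8.68-fold lower. circBtaf1, from the gene of an ATPase that removes TBP from DNA (chr19:37009580-37010182), had 20 and 19 reads in WT, against 0 and 0 in KO, at least 8.91-fold lower. circFarp2, from the gene of a guanine nucleotide exchange factor (chr1:93605342-93607670), had 17 and 17 reads in WT, against 0 and 0 in KO, at least 7.77-fold lower. These 3 circles were listed at 0 in all 4 total libraries of both genotypes, which include the WT cells where the cytoplasm held them.

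circMeis3, from a homeobox gene (chr7:16182041-16182468), had 20 and 17 reads in WT, against 0 and 0 in KO cytoplasm, at least 8.45-fold lower, whereas total RNA held 5 and 6 reads in WT, against 5 and 4 in KO. The 4 lower calls had adjusted p of 0.00016 to 0.000165 in edgeR and 0.0231 to 0.0243 in DESeq2. A log2 change fitted against 0 reads depends on the prior count, so bounds are given for these circles, which likewise were listed in cytoplasm only through the WT libraries.

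In total RNA no compact circRNA passed the threshold. Of 2438 tested, 0 were called by edgeR (0% of all 8903 circRNAs, smallest adjusted p 0.058), and 1 by DESeq2. At an unadjusted p under 0.05 there were 499 higher and 490 lower, against 19.9% and 18.4% of all circRNAs. The count turned on small choices, and the share over all circRNAs was not counted for the fits without a library. It was 533 with the RLE scaling (20.6% of all circRNAs called), 573 with scaling by total reads (22.5%), 588 with the replicate number as a block (23.1%), 146 without WT replicate 1 and 102 without WT replicate 2.

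Among the smallest p in total RNA was that of circSdf4, which did not pass the threshold. circSdf4, from the gene of a calcium-binding protein of the Golgi (chr4:155999398-156000783), had 1 and 1 reads in WT, against 13 and 15 in KO total RNA (log2 change 3.69 ± 0.59 SE, adjusted p = 0.058). circSenp1, from the gene of a SUMO protease (chr15:98084970-98087133), had 2 and 2 reads in WT, against 15 and 17 in KO, and its flanking introns hold an inverted match of 150 nt. Both were absent from the cytoplasmic lists and were set to 0 there. Each passed the read minimum only through the KO libraries where it was high, so its order between genotypes follows in part from that choice.

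circSynj2, from the gene of an inositol phosphatase (chr17:6016266-6019478), had 10 and 10 reads in WT, against 1 and 0 in KO total RNA, and 10 and 16 in WT, against 1 and 1 in KO cytoplasm. It was lower in KO in both fractions, past the threshold in cytoplasm in edgeR (log2 change -3.03 ± 0.66, adjusted p = 0.00108) but not with DESeq2 (0.0778) or without KO replicate 2 (0.0546), and not in total RNA (adjusted p = 0.058). A circle at chr16:18932868-18935179, assigned to Gm28539, had 16 and 15 reads in WT, against 1 and 1 in KO total RNA but 2 and 3 in WT, against 12 and 9 in KO cytoplasm. Its exons are also exons of Hira, a histone chaperone gene that overlaps Gm28539, so the host is uncertain. In both fractions circSynj2 passed the read minimum only through the WT libraries, and only they put it on the total RNA list. The circle of Gm28539 passed that minimum only through WT in total RNA and only through KO in cytoplasm, where it was high. For both circles the order between genotypes follows in part from that choice.

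The third comparison asked whether the KO effect differed between cytoplasm and total RNA. Of the 3985 compact circRNAs in this fit, 186 had a higher and 106 a lower effect in cytoplasm, against 4.22% and 3.19% of all 13729 circRNAs. These totals include circles at 0 in every library of a fraction, which this fit cannot call. All calls therefore belonged to the 1276 listed in both fractions, where 22.9% were called. Over all circRNAs listed in both, 12.1% had a higher and 9.12% a lower effect. No circle was called without KO total replicate 1 or without KO total replicate 2. Without WT cytoplasm replicate 2 the balance turned to 88 higher and 110 lower. With DESeq2 the count was 39 of the 3985, against 150 of all 13729 circRNAs. For the fits without a library the share over all circRNAs was not counted.

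circPsd3 and circNfia had the smallest p. circPsd3, from the gene of an exchange factor for ARF6, had 0 and 2 reads in WT, against 22 and 18 in KO cytoplasm, and 10 and 12 in WT, against 2 and 1 in KO total RNA. circNfia, from the gene of a nuclear factor I transcription factor, had 0 and 1 reads in WT, against 22 and 19 in KO cytoplasm, and 7 and 6 in WT, against 1 and 1 in KO total RNA. In both, the genotypes did not overlap in either fraction and had opposite orders in them. Both were listed in cytoplasm only through the KO libraries, where they were high, and both were picked by this p. Their order in cytoplasm follows in part from that choice, and their values are given as a description. The log2 effects differed by 7.37 ± 1.03 and 8.00 ± 1.11 (SE, adjusted p = 0.00023). Both calls were lost without scaling (adjusted p = 0.0551 and 0.0513), without KO total replicate 1 (0.134) and without KO total replicate 2 (0.0966).

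Across the 1094 compact circRNAs tested in both fractions, the changes had no common direction. Of 289 that were higher in KO cytoplasm, 145 (50.2%) had a log2 change above 0 in total RNA, and of 210 that were lower, 110 (52.4%) had one below 0. Spearman's correlation of the changes was 0.013 across these circRNAs, which are not independent of each other. Cytoplasm and total RNA came from separate libraries with no sample in common.

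**Figure D5:**
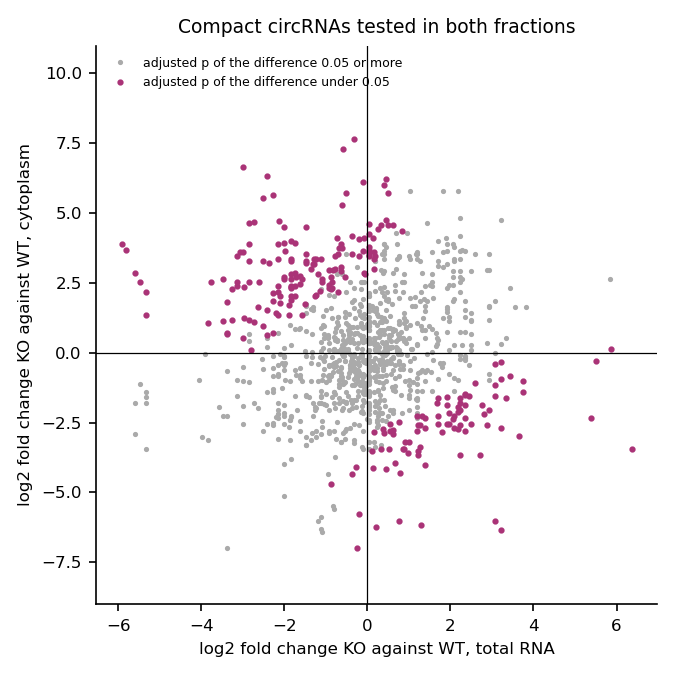
The log2 change (KO against WT) in total RNA (x axis) and in cytoplasm (y axis) for the 1094 compact circRNAs tested in both, 1 point per circRNA, with the 241 called for a different effect in the 2 fractions coloured. The points form no diagonal (Spearman's correlation 0.013).

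Circles of hosts that are named in circRNA work were looked up by host gene. Each is the most abundant compact circle of its host, given with its position, and it was not shown to be the same circle that other work, or the imaging in this study, names after that host. Of 39 such hosts, 17 had a compact circRNA, and 13 of these were tested in cytoplasm, where 3 were higher, 2 lower and 8 did not pass the test, against 30.0% higher and 23.5% lower over all circRNAs. A circle of Wwc1 (exons 18 to 19, chr11:35852194-35853477), the gene of the Hippo pathway scaffold KIBRA, had 3 and 0 reads in WT, against 10 and 10 in KO cytoplasm (log2 change 3.16 ± 0.67 SE, adjusted p = 0.000893). Its change was 1.72 without WT replicate 2 (adjusted p = 0.105) and up to 6.47 with another library left out, and the call was also lost without scaling (adjusted p = 0.0906). A circle of Ddx17 (exons 3 to 8, chr15:79538559-79542586), the gene of an RNA helicase, had 1 and 1 reads in WT, against 10 and 7 in KO cytoplasm (3.45 ± 0.68, adjusted p = 0.000569). Both were absent from the total RNA lists and were set to 0 there. The Wwc1 circle was listed in cytoplasm only through the KO libraries, and both circles passed the read minimum only through them. Their order between genotypes follows in part from that choice.

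A circle of Rere (exons 13 to 15, chr4:150610854-150612746), the gene of a transcriptional corepressor, had 1 and 2 reads in WT, against 6 and 3 in KO cytoplasm (log2 change 2.03 ± 0.74, adjusted p = 0.032), and 6 and 8 in WT, against 2 and 1 in KO total RNA. Its cytoplasmic call was lost with the replicate block (adjusted p = 0.053), without scaling (0.132), without WT replicate 1 (0.192) and without WT replicate 2 (0.141), and DESeq2 gave it no adjusted p. A circle of Zkscan1 (exons 4 to 5, chr5:138097067-138097579), a zinc finger gene, had 20 and 19 reads in WT, against 1 and 2 in KO cytoplasm (-3.08 ± 0.64, adjusted p = 0.000798, and 0.053 with DESeq2) and was absent from the total RNA lists. Like the circle of Crebrf below, it passed the read minimum only through the WT libraries. A circle of Crebrf (exons 2 to 3, chr17:26736789-26739668), the gene of a regulator of the transcription factor CREB3, had 10 and 11 reads in WT, against 1 and 2 in KO cytoplasm (-2.19 ± 0.62, adjusted p = 0.00722), and 4, 7, 5 and 6 in total RNA. The Crebrf call was lost with DESeq2 (adjusted p = 0.16), without KO replicate 1 (0.246) and without KO replicate 2 (0.109).

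The 8 that did not pass in cytoplasm were circles of Nfix, Man1a2, Rtn4, Tulp4, Hipk2, Pvt1, Mbnl1 and Stau2. The Tulp4 circle (chr17:6198672-6201834) was the most abundant of them, with 44 and 20 reads in WT, against 16 and 34 in KO cytoplasm, which overlap. The Man1a2 circle (chr3:100578476-100582157) hardly varied, with 5, 6, 5 and 5 reads in the WT and KO cytoplasmic libraries and 6, 5, 3 and 5 in total RNA. The more abundant of 2 compact circles of Nfix (exons 3 to 6, chr8:84726469-84727967) had 6 and 6 reads in WT, against 1 and 3 in KO cytoplasm (adjusted p = 0.245). The circle of Mbnl1 (chr3:60613263-60615773), the gene of a splicing factor, had 6 and 6 reads in WT, against 2 and 1 in KO cytoplasm, and 5 and 5 in WT, against 0 and 0 in KO total RNA.

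The compact circle of Specc1 (exons 10 to 11, chr11:62151870-62156640) was listed in total RNA alone, with 7 and 4 reads in WT, against 2 and 1 in KO (adjusted p = 0.103). That of Zfp644 (chr5:106634831-106638635), the longest compact circle at 3632 nt, had 17 and 11 reads in WT, against 18 and 9 in KO total RNA, and was absent from the cytoplasmic lists. The Afap1 circle (chr5:35974388-35976637) had 3 and 4 reads in WT, against 1 and 2 in KO total RNA, and the circle of Mto1 fell under the read minimum in cytoplasm. No compact circRNA came from Hipk3 or Adarb1.

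The span limit cuts through a continuous range. Just inside it lay circles of Myo10 (5000 bp), Mrpl39 (4998 bp) and Fgfr2 (4996 bp), and just outside it circles of Tmem184c (5003 bp), Vac14 (5004 bp) and Pank2 (5006 bp). circMyo10 had 10 and 43 reads in WT, against 8 and 21 in KO cytoplasm. The circle of Tmem184c had 2 and 1 reads in WT, against 14 and 10 in KO cytoplasm.

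The last comparison asked whether the linear output of the hosts differed between genotypes. The sample titles gave the genotype of each mRNA library, whereas the heading inside each count file names the other genotype, so every mRNA direction below would turn round if the headings were right. Of 2834 hosts tested, 681 were higher and 890 lower in KO, against 25.1% and 23.6% of all 14688 genes. The hosts were also read in 10 groups by the protein they code for. More hosts were lower than higher in 7 of these, among them the chromatin regulators (7 higher and 48 lower of 89), and more were higher in the other 3, membrane trafficking (41 and 14 of 101), extracellular matrix and integrins (15 and 13 of 33) and solute carriers (9 and 7 of 32). Of the compact circRNAs of these groups tested in cytoplasm, 25% to 40% were higher and 14.8% to 29.8% lower, around the 30.0% and 23.5% over all circRNAs. The groups were assigned with earlier results known, and nothing is called particular to them.

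The change of a host did not separate the calls of its circles. In cytoplasm 34.7% of the 571 circles whose host was higher were called higher, 34.0% where the host was lower and 34.0% where the host did not pass the test. Called lower were 22.2%, 22.2% and 21.8%. Spearman's correlation between the change of a circle and of its host was 0.017 across 2603 circles in cytoplasm and -0.030 across 2413 in total RNA. Uck2 mRNA had a log2 change of -0.60 (adjusted p = 7.22e-07) while circUck2 did not pass its tests, and Nfia mRNA changed by 0.89 (adjusted p = 8.42e-06).

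Genes of circRNA export, turnover and backsplicing were read from the same mRNA fit. Of 22 measured export and turnover genes, 1 was higher, 12 were lower and 9 did not pass the test, against 25.1% higher and 23.6% lower over all genes. Their median log2 change was -0.16, and that of all genes -0.0029. The higher call, of Rida, was lost with DESeq2 (adjusted p = 0.103), RLE scaling (0.0510), no filter (0.0863) and the replicate block (0.0677). It was also lost in 5 of 6 fits with 1 library left out. The lower call of Ythdf2 was lost with DESeq2 (adjusted p = 0.0568) and the replicate block (0.0507), and that of Cse1l with no filter (0.0612). Leaving out 1 library lost the lower call of Ythdf2 in 5 of 6 fits, of Cse1l in 4, of G3bp1 in 3 and of Ago2 in 2. The other lower calls of this list held in each of these fits. Ddx39b, one of the helicases linked to circRNA export, had 10731, 10933 and 12764 counts in WT and 5436, 5514 and 5228 in KO (log2 change -0.87). Ddx39, which codes for DDX39A, changed by -0.47. Of 20 tested backsplicing regulators, 2 were higher (Mbnl1 and Zfp36), 11 were lower and 7 did not pass, against the same shares over all genes, with a median of -0.15. Qk, which codes for the intron-binding protein Quaking, changed by -0.20 (adjusted p = 0.0177, and 0.0644 to 0.0796 without KO replicate 1, WT replicate 1 or WT replicate 2). Leaving out 1 library also lost the lower call of Hnrnpl in 5 of 6 fits and of Nono in 3. The Hnrnpl call was lost with no filter (adjusted p = 0.0783) and with the replicate block (0.0525) as well. Apart from Hnrnpl, Nono and Qk, the lower calls of the backsplicing list held. Each list is described by its counts and median only.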

How the data were processed

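The authors called circRNAs with find_circ from RNase R-treated libraries and deposited whole counts of junction reads per circRNA and library; their methods speak of TPM, but the values are whole numbers. They deposited mRNA gene counts made with HISAT2 and featureCounts (2.0.0, per the file headers) on mm10, without a strand setting, so reads of overlapping and antisense genes cannot be told apart. Their methods say that circRNAs found in both replicates were merged; how libraries of the other genotype were filled is not given in the sources used here. The compact circRNAs and all lists were chosen with earlier results of these data known. Exon edges came from the deposited mRNA tables, and sequences from GRCm38.p6 with GENCODE M21; 4482 of 4530 matched 1 transcript.

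Counts were tested with edgeR 4.0.16 (TMM, glmQLFit and glmQLFTest, R 4.3.3) over all circRNAs with at least 10 reads in the fit, or all genes passing filterByExpr, with Benjamini-Hochberg adjustment at 0.05. circRNAs absent from a list were set to 0. The SE of a log2 change was its absolute value divided by the square root of the quasi-likelihood F statistic. It is not a separate estimate of error. The fold bounds use a floor of 3 counts over both libraries of a genotype and cover counting error only. Library values were compared by two-sided exact permutation. RPKM and CPM were computed from the deposited counts. Scripts were tested on simulated data. Alternatives were other scalings, no read filter, DESeq2 1.42.0, a replicate block, a span limit of 3000 bp, leaving out each library and, chosen after seeing the data, a minimum of 50 reads.

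Named circRNAs were the 8 with most reads, the 4 higher and 4 lower in cytoplasm and 2 and 2 in total RNA with the smallest p and a mean of at least 10 reads, the 2 with the smallest p for the difference between fractions, the most abundant circle of each listed host, the hosts with most circles, the neighbours of the span limit and the shortest circle. The nuclear libraries served only to apply the rule.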

Additional observations from a re-analysis of the deposited data

Results flagged for a closer look

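Several results were flagged for a difference between cytoplasm and total RNA in the contrast of KO against WT. Each had a test of the difference itself. The circRNAs among them were named from these same data, most by a small p. circNfia, circLman2, circDcp2 and circPsd3 were listed in cytoplasm only through the KO libraries, and circMeis3 only through the WT libraries. The values of the circRNAs are therefore given as a description. The shift of compact against longer circRNAs differed by 0.0849 on the log10 scale between the fractions, with an exact permutation p of 0.0556, which is the smallest possible and misses 0.05. By the interaction term of the edgeR fit, the KO effect on the log2 scale was higher in cytoplasm by 8.00 for circNfia, 7.77 for circLman2, 7.73 for circDcp2, 7.37 for circPsd3, 6.27 for the circle assigned to Gm28539 and 4.07 for the circle of Rere (circRere). It was lower in cytoplasm by a log2 value of -6.65 for circMeis3. The values for circLman2, circDcp2 and circMeis3 rest on 0 reads in both cytoplasmic libraries of 1 genotype, so their size depends on the prior count. Each of these 7 calls was lost without KO total replicate 1 and without KO total replicate 2 (adjusted p = 0.0966 to 0.158), and each but that of Gm28539 without scaling (0.0513 to 0.0975). With DESeq2 those of circMeis3 (0.0528) and circRere (0.164) were lost, and that of circRere also without KO cytoplasm replicate 1 (0.184) and WT cytoplasm replicate 1 (0.0748). Over compact circRNAs as a whole, no such difference was called when either KO total library was left out, and the cause was not tested.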

How the results depend on the processing

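The number of compact circRNAs called in cytoplasm was 1473, and it was 289 with DESeq2 (which gave no adjusted p for 1172), 719 without scaling, 21 with a minimum of 50 reads, and 600 to 1090 when 1 library was left out (600 without KO replicate 1, 656 without KO replicate 2, 765 without WT replicate 2). In total RNA 0 were called, against 1 with DESeq2, 533 with RLE, 573 with total reads, 588 with the replicate block, 3 with a minimum of 50 reads and 0 to 146 with 1 library left out. For the difference between fractions the count of 292 became 39 with DESeq2, 4 without scaling, 65 with a minimum of 50 reads and 0 to 251 with 1 library left out (162 without KO cytoplasm replicate 1, 170 without WT cytoplasm replicate 1). The hosts called in mRNA numbered 1571, and 1318 to 1648 with 1 library left out. The cytoplasmic level difference turned to 0.0806 after scaling. The total RNA share difference ranged from -1.32 to 0.945 points and the cytoplasmic one from 1.70 to 4.95. The difference from longer circRNAs ranged from -0.00861 to 0.00240 and turned to 0.00240 without WT cytoplasm replicate 1 and 0.00224 without WT cytoplasm replicate 2. The difference from single-exon circRNAs stayed between -0.0486 and -0.0377. For the fits with 1 library left out, shares called over all circRNAs or genes were not counted. Nor were they counted for total RNA with a minimum of 50 reads, or for the difference between fractions with that minimum or without scaling. These counts are therefore not read as particular to compact circles or their hosts. The causes were not tested.

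Replicate numbers did not pair the samples: deviations of equally numbered libraries correlated by -0.0191 in cytoplasm and 0.0191 in total RNA, and by -0.0749 to 0.0483 in mRNA. With the replicate block the counts were 1390 in cytoplasm, 310 for the difference between fractions and 1595 for host mRNA. The shares called over all circRNAs or genes were not counted for these block fits. For named circRNAs and genes, alternatives other than leaving out a library kept 344 values on their side of the threshold, brought 12 past it and lost 25; leaving out a library kept 379, brought 5 past it and lost 65. The median compact circRNA had 3 to 6 reads in a library, so small changes in a single circle were not detectable at this depth.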
